A study of Mus musculus with 4 samples.

Results

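The genes for the protein parts of the cytosolic ribosome were examined in the outer tissues surrounding the femoral artery, which the study describes as mainly perivascular adipose tissue (PVAT), after wire injury of the artery or after sham operation. They were chosen by symbol as all rows starting with *Rpl* or *Rps* and a digit, together with *Rplp0*, *Rplp1*, *Rplp2* and *Rpsa*, and this left 85 of the 12661 genes in the table. Symbols of the ribosomal S6 kinases (9 rows) and pseudogene symbols with "-ps" (6 rows) were left out by the same rule. All animals were ovariectomized wild type C57BL/6 female mice, 11 weeks old, and tissue was taken 48 h after either operation. There were 2 libraries after injury and 2 after sham operation, and the labels do not say whether a library is 1 animal or a pool. The deposited values are signed numbers on what looks like a log scale, and they were treated as relative values within each gene. The base of the scale and what 0 stands for are not given in the sources used here, so all differences stay in the units of the table, without conversion to folds. Levels cannot be compared between genes, and the depth behind a value is unknown.

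A ribosome joins a small subunit, which reads the mRNA, to a large subunit, which links amino acids and releases the new chain through an exit tunnel. Each particle needs its proteins in fixed proportions, and their mRNAs are known to be regulated together, mostly at translation, through a tract of pyrimidines at the very start of the mRNA (terminal oligopyrimidine, or TOP, mRNAs). In adipose tissue that takes in immune cells, ribosomal protein mRNA comes from every cell type present. Of the 85 genes, 77 encode proteins of the particle itself (46 of the large subunit and 31 of the small subunit), and these are called the particle genes here. The other 8 are the paralogs *Rpl7l1*, *Rpl22l1*, *Rpl36al*, *Rps27l* and *Rps4l*, the retrocopies *Rps27rt* and *Rpl37rt*, and *Rps19bp1*, which encodes a binding protein of RPS19 and no ribosomal protein.

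The start of the transcript is what these genes are known to share, and it is shown for members at both ends of the range of differences. RefSeq starts on GRCm38.p6 were matched by symbol for 64 of the 85 genes. A C at the annotated start followed by at least 4 more pyrimidines was present in 14 of the 64 (21.9%) and in 3.01% of the 27025 genes of that table. The letters CGGAAG, the core of sites bound by ETS factors, were found on either strand within 250 bases before to 50 bases after the start in 43 of the 64 (67.2%) and in 18.8% of all 27025. Both are matches of letters and do not show use of a site. The tract was sought only at the annotated base, so one that begins elsewhere was not counted. The 27025 genes are not limited to the 12661 measured here, so their shares are no background of measured genes. The 3 particle genes with the lowest and the 3 with the highest difference between injury and sham among those with such a tract are printed from 30 bases before the start to 30 bases from it, 5′ to 3′, with the tract in capitals, followed by *Rps19bp1*, which has none. They lie at chr2:39005102-39005161 (minus strand, *Rpl35*), chr14:18270957-18271016 (minus, *Rpl15*), chr17:33955636-33955695 (minus, *Rps18*), chr2:180257349-180257408 (plus, *Rps21*), chr11:114668550-114668609 (plus, *Rpl38*), chr7:141447621-141447680 (plus, *Rplp2*) and chr15:80264277-80264336 (minus, *Rps19bp1*).
Rpl35: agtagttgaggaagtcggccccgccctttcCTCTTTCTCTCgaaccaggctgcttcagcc
Rpl15: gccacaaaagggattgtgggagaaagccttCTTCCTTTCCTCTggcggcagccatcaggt
Rps18: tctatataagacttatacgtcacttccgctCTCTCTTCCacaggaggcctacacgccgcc
Rps21: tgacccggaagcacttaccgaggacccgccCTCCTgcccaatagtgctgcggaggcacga
Rpl38: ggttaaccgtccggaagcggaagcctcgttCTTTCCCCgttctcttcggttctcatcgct
Rplp2: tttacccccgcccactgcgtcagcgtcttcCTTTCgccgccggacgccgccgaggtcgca
Rps19bp1: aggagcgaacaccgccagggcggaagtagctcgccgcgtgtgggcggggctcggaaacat

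The 13 particle genes with the tract had a median difference of -0.12 deposited units. The 44 with an annotated start but no tract at exactly that base had one of -0.18, and the difference between them was not tested. These 44 cannot be read as genes without a TOP start. *Rpl35* and *Rplp2*, both with a tract, had differences of -0.38 and 0.36.

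Most ribosomal protein genes had slightly lower means after injury, but no single member passed the test and the group as such was not tested. By limma with Benjamini-Hochberg adjustment over 12661 genes, 0 of the 85 members had an adjusted p-value under 0.05, beside 7.43% of all genes. At an unadjusted p-value under 0.05, 11 members were lower (12.9%, beside 14.8% of all genes) and 1 was higher (beside 14.8% of all genes). The share of lower members depended on the setting, being 31.8% with GC and length trends taken out and 18.8% after quantile normalization (beside 14.6% and 14.7% of all genes), but 2.35% with a replicate block (beside 13.5%) and 0 to 3.53% with 1 library left out (beside 7.73% to 15.8%). The mean was lower after injury in 71 of the 85 members, beside 49.1% of all genes, and the median difference was -0.15, beside 0.0085 over all genes. Both injury values lay below both sham values in 46 members (54.1%), beside 30.3% of all genes. Both lay above in 6 members (7.06%), beside 31.6% of all genes. By their means and by groups lying apart, the members were more often on the low side than genes at large, by small amounts. At an unadjusted p-value under 0.05 in the fit reported they were not. This contrast was not tested over the members, which share the same libraries. Their differences ran from -0.52 (*Rps3*) to 0.46 (*Rps19bp1*), while the smallest difference that was called anywhere in the table was 0.64 in size, so no member moved as far as any called gene. An exact permutation test of 1 gene with 2 libraries against 2 cannot go below p = 0.333. With an adjusted p-value under 0.1, *Rps3* was called lower and *Rps19bp1* higher, where 9.09% of all genes were called lower and 9.21% higher.

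**Figure D1:**
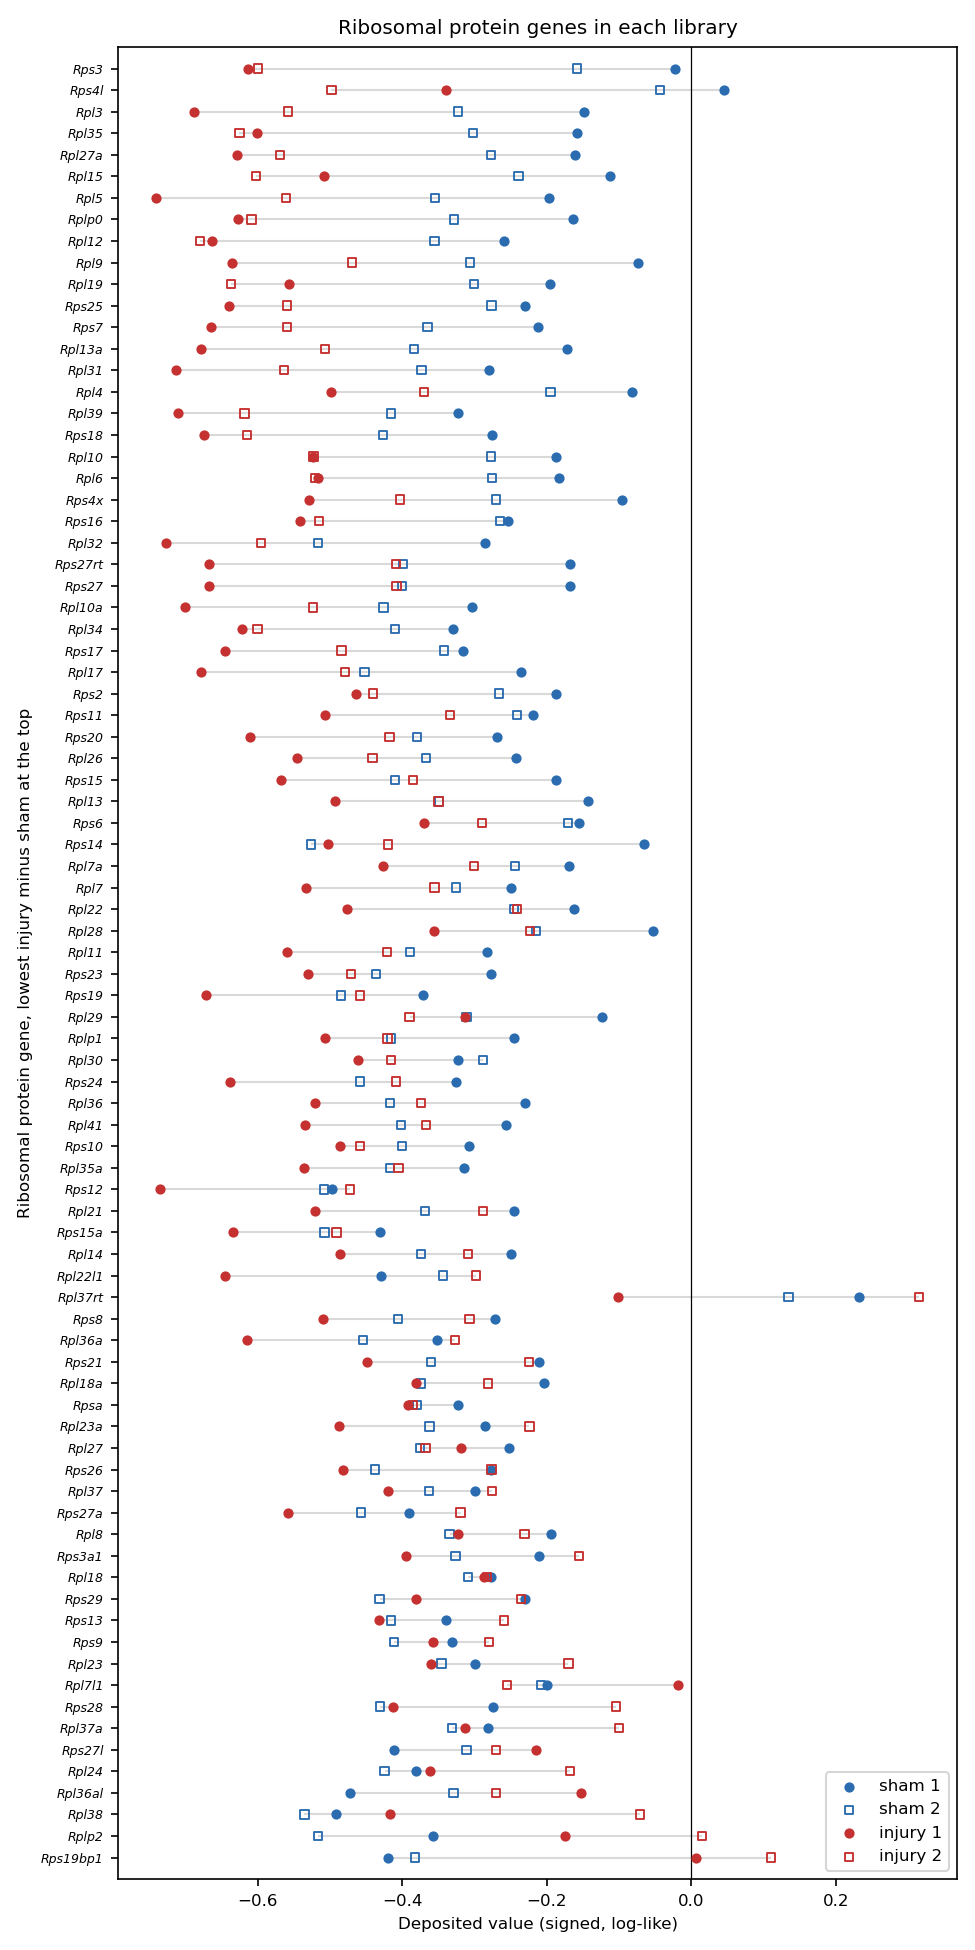
Deposited value (horizontal axis, signed and log-like) of ribosomal protein genes in the 2 sham libraries (blue) and the 2 injury libraries (red; circles for replicate 1, open squares for replicate 2), ordered by the difference of the group means. Sham replicate 1 lies to the right of injury replicate 1 in most rows, and the bottom rows, *Rpl38*, *Rplp2* and *Rps19bp1*, have both injury values to the right.

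The members stayed close together in every library. Within a library their values had an SD of 0.10 to 0.17, where all genes had 0.32 to 0.44, and the quartiles of their differences spanned 0.23, against 0.51 for all genes. This was not particular to the members. The mitochondrial ribosomal protein genes had an SD of 0.14 to 0.20 and quartiles spanning 0.23. For the initiation factors these values were 0.20 to 0.23 and 0.24. In 81 of the 85 (95.3%) the value was below 0 in all 4 libraries, as it was in 1513 of the 12661 genes. The exceptions were *Rpl37rt*, *Rps4l*, *Rplp2* and *Rps19bp1*. What 0 stands for is unknown, so these negative values give no level.

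The members also differed together between libraries of the same group. Their median was -0.25 in sham replicate 1, -0.37 in sham replicate 2, -0.52 in injury replicate 1 and -0.39 in injury replicate 2, while the median of all genes was within 0.0062 of 0 in each. Sham replicate 1 was above sham replicate 2 in 80 of 85 members (51.6% of all genes), by a median of 0.11. Injury replicate 2 was above injury replicate 1 in 74 of 85 (51.1% of all genes), where injury replicate 1 was lower by a median of 0.13. These gaps between replicates were nearly as large as the difference of -0.15 between the groups. The values ran in the order sham 1, sham 2, injury 2, injury 1, from high to low, in 38 members (44.7%, beside 12.5% of all genes). Injury replicate 1 was below both sham values in 70 members (82.4%, beside 41.7% of all genes) and injury replicate 2 in 47 (55.3%, beside 39.5%). The size of the group difference therefore depended on single libraries. The median was -0.080 without sham replicate 1, -0.20 without sham replicate 2, -0.090 without injury replicate 1 and -0.23 without injury replicate 2, and the number of members with a lower mean was 61, 74, 57 and 76. The members are not independent measurements of it, since they share these libraries.

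Cell type markers differed between the groups in the same libraries. Of 10 macrophage markers, 5 were called higher (*Csf1r*, *Itgam*, *Lyz2*, *Fcgr1* and *Ctss*), and the list had a median value of -1.20 and -1.02 in sham replicates 1 and 2 and of 0.59 and -0.019 in injury replicates 1 and 2. Of 7 smooth muscle markers, 4 were called lower (*Myh11*, *Acta2*, *Tagln* and *Cnn1*), and the list had medians of 1.72, 1.03, -1.39 and -0.20 in the same libraries. The median of the ribosomal protein genes had the same order of libraries as the smooth muscle, fibroblast, endothelial and Schwann cell markers. It had the opposite order to the macrophage and neutrophil markers. The other marker lists had neither order. Called higher were also 1 of 7 neutrophil and 5 of 8 brown adipocyte markers. Called lower were 1 of 10 adipocyte, 3 of 8 fibroblast, 2 of 8 endothelial and 2 of 7 Schwann cell markers. No call was made among 4 lymphocyte, 6 skeletal muscle, 8 proliferation and 1 epithelial marker analysed. In bulk tissue, fewer cells of a type and less RNA per cell cannot be told apart, and the part of these cell types in the ribosomal protein values was not tested. All 10 adipocyte markers were in the table, but these relative values do not show how abundant they were.

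**Figure D2:**
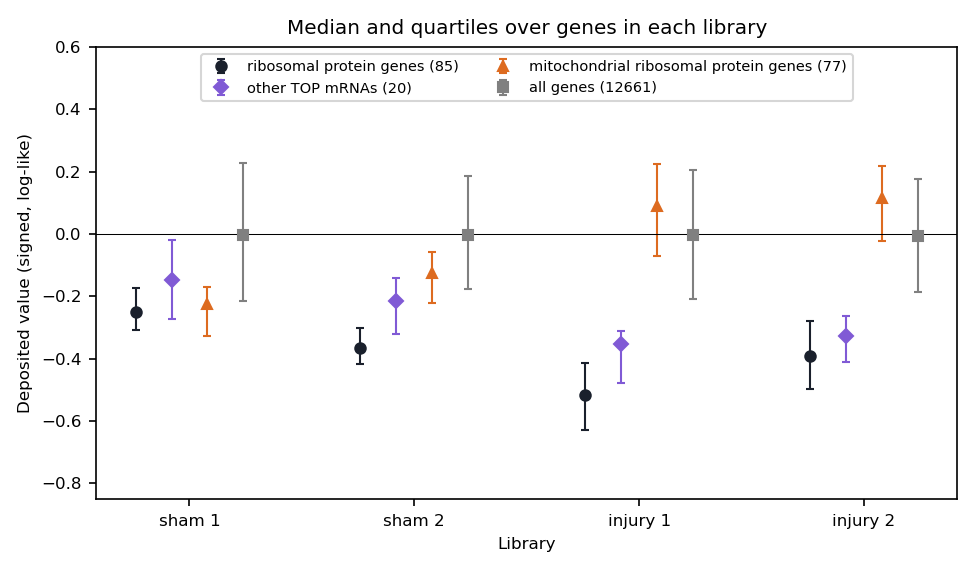
Median (symbol) and quartiles (bars) over genes of the deposited value in each of the 4 libraries for the 85 ribosomal protein genes, 20 other TOP mRNAs, 77 mitochondrial ribosomal protein genes and all genes. The ribosomal protein genes are lowest in injury replicate 1 (-0.52) and highest in sham replicate 1 (-0.25), and the mitochondrial ribosomal protein genes are above 0 in both injury libraries.

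*Rps3* had the lowest difference of all members. It encodes a small subunit protein at the channel where mRNA enters, which also has a role in DNA repair, and lies on chromosome 7 from 106626406 to 106632248 (minus strand) of mm9 in the GENCODE annotation. The sham libraries gave -0.022 and -0.16 and the injury libraries -0.61 and -0.60. The groups did not overlap, and the gap between them exceeded the gap between replicates in either group. Injury minus sham came to -0.52 (standard error 0.14; limma adjusted p = 0.0782), and it lay between -0.58 and -0.45 with each library left out in turn.

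The next lowest were *Rps4l*, *Rpl3*, *Rpl35* and *Rpl27a*. *Rps4l*, a paralog of *Rps4x*, was at 0.045 and -0.044 after sham operation and at -0.34 and -0.50 after injury (difference -0.42, standard error 0.14, adjusted p = 0.124 from limma). *Rpl3*, whose protein reaches toward the peptidyl transferase centre, was at -0.15 and -0.32 after sham operation and at -0.69 and -0.56 after injury (difference -0.39, standard error 0.15). In both genes the groups were apart. *Rpl35*, at the mouth of the exit tunnel, was at -0.16 and -0.30 after sham operation and at -0.60 and -0.63 after injury (difference -0.38). *Rpl27a* was at -0.16 and -0.28 after sham operation and at -0.63 and -0.57 after injury (difference -0.38). The adjusted p-values of *Rpl3*, *Rpl35* and *Rpl27a* from limma were 0.152, 0.141 and 0.140. These 5 genes, with *Rpl15*, *Rpl5*, *Rplp0*, *Rpl12*, *Rpl19* and *Rps25*, are the 11 members that were lower at an unadjusted p-value under 0.05, and only *Rps4l* among them is outside the particle.

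The typical member is shown by the 3 genes nearest the median of the differences. *Rpl11*, which joins *Rpl5* and the 5S rRNA in a particle that also restrains MDM2, was at -0.28 and -0.39 after sham operation and at -0.56 and -0.42 after injury (difference -0.15). *Rpl28* was at -0.054 and -0.22 after sham operation and at -0.36 and -0.22 after injury (difference -0.15). *Rpl22*, a large subunit protein with a paralog in the table, was at -0.16 and -0.25 after sham operation and at -0.48 and -0.24 after injury (difference -0.16). In *Rpl28* the injury replicate 2 value was below the lower sham value by less than 0.01 unit, and in *Rpl22* the groups overlapped. The standard errors of these 3 differences were 0.14 to 0.15. They rested on single libraries, since leaving out injury replicate 1 gave -0.085 for *Rpl11*, -0.089 for *Rpl28* and -0.038 for *Rpl22*, leaving out sham replicate 1 gave -0.074 for *Rpl28*, and leaving out injury replicate 2 gave -0.27 for *Rpl22*.

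The 6 members with both injury values above both sham values were *Rps19bp1*, *Rplp2*, *Rpl38*, *Rpl36al*, *Rpl24* and *Rps27l*, of which 3 (*Rplp2*, *Rpl38* and *Rpl24*) are particle genes. *Rps19bp1*, on chromosome 15 from 80091044 to 80094736 (minus strand) of mm9, was at -0.42 and -0.38 after sham operation and at 0.0060 and 0.11 after injury. It differed by 0.46 (standard error 0.13; limma adjusted p = 0.0948). *Rplp2*, on chromosome 7 from 148633269 to 148637484 (plus strand) of mm9, encodes an acidic protein of the stalk that recruits elongation factors. It was at -0.36 and -0.52 after sham operation and at -0.17 and 0.014 after injury (difference 0.36, standard error 0.15, adjusted p = 0.186 from limma). The groups were further apart than the replicates of either group in *Rps19bp1*, whereas in *Rplp2* the injury libraries lay about as far from each other as the groups did. With GC and length trends removed, *Rplp2* differed by 0.19. *Rpl38*, linked to the translation of Hox mRNAs and lying on chromosome 11 from 114529838 to 114533645 (plus strand) of mm9, was at -0.49 and -0.54 after sham operation and at -0.42 and -0.071 after injury. Its difference of 0.27 (standard error 0.17) was 0.097 without injury replicate 2, so that library set most of it. *Rpl24*, in a bridge between the subunits, was at -0.38 and -0.42 after sham operation and at -0.36 and -0.17 after injury, with a difference of 0.14, which became 0.041 when injury replicate 2 was left out and 0.24 when injury replicate 1 was. The differences of *Rpl36al* and *Rps27l* were 0.19 and 0.12, and with GC and length trends removed they were 0.11 and 0.00045. The same correction gave 0.18 for *Rpl38*, 0.23 for *Rpl24* and 0.31 for *Rps19bp1*. It took *Rpl24* as long, since its longest annotated coding transcript has 4999 nucleotides. Among the 6 genes the adjusted p-value from limma was lowest for *Rps19bp1* and under 0.2 in no other gene but *Rplp2*.

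The large and small subunits had similar typical values. The median difference was -0.16 over the 46 large subunit genes and -0.14 over the 31 small subunit genes, with a lower mean in 40 and 27 of them. The groups were apart on the low side in 28 large (60.9%) and 16 small (51.6%) subunit genes, beside 30.3% of all genes, and on the high side in 3 and 0, beside 31.6%. Sham replicate 1 exceeded sham replicate 2 in 31 of 31 small subunit genes, and injury replicate 2 exceeded injury replicate 1 in as many. In the large subunit these orders held for 45 and 39 of 46 genes.

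Members were then grouped by their known place in the ribosome. At the peptide exit tunnel, whose rim receives chaperones and the signal recognition particle, all 8 genes had lower means after injury, and in 7 the groups were apart (30.3% of all genes and 54.1% of the members were), with *Rpl23a* the exception at -0.032. Their median was -0.30, and the values were -0.38 for *Rpl35*, -0.35 for *Rpl19*, -0.31 for *Rpl31*, -0.30 for *Rpl4*, -0.29 for *Rpl39*, -0.23 for *Rpl17* and -0.19 for *Rpl26*. None passed the test, and this group was assembled with the values known. Beside the peptidyl transferase centre, where peptide bonds form, *Rpl3* and *Rpl10* were at -0.39 and -0.29 while *Rpl8* was at -0.013. In the particle of 5S rRNA, *Rpl5* was at -0.37 and *Rpl11* at -0.15.

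The acidic stalk held the widest contrast. *Rplp0*, which anchors the stalk, was at -0.16 and -0.33 after sham operation and at -0.63 and -0.61 after injury (difference -0.37, standard error 0.14, adjusted p = 0.152 from limma). *Rplp1*, one partner of the dimers it carries, was at -0.25 and -0.42 after sham operation and at -0.51 and -0.42 after injury (difference -0.13, but -0.048 without sham replicate 1 and -0.28 after the GC and length correction). *Rplp2*, the other partner, lay on the other side at 0.36. Whether these genes differ from one another in their response was not tested.

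In the small subunit the genes at the mRNA entry channel were unequal, with *Rps3* at -0.52, *Rps2* at -0.23 and *Rps9* at 0.053. At the platform where mRNA leaves, *Rps14* was at -0.16, *Rpsa* at -0.037, *Rps26* at -0.022 and *Rps28* at 0.094. The sham libraries of *Rps14*, at -0.066 and -0.53, lay on both sides of its injury libraries, at -0.50 and -0.42 (standard error 0.19). *Rps15* and *Rps23*, near the decoding centre, were at -0.18 and -0.14. *Rps6*, the substrate of the S6 kinases, was at -0.16 and -0.17 after sham operation and at -0.37 and -0.29 after injury, and its difference was -0.17 (standard error 0.13). A list of 9 genes in which loss of 1 copy is known to cause Diamond-Blackfan anaemia, a failure of red cell production, ran from -0.37 (*Rpl5*) to -0.022 (*Rps26*), with a median of -0.14. The list is not complete, and *Rps28*, *Rps29* and *Rpl18*, which are also linked to the disease, were at 0.094, 0.023 and 0.0081. Particle genes in neither these place groups nor the disease list had medians of -0.15 (27 of the large subunit, from -0.38 for *Rpl27a* to 0.27 for *Rpl38*) and -0.13 (16 of the small subunit, from -0.35 for *Rps25* to 0.032 for *Rps13*).

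**Figure D3:**
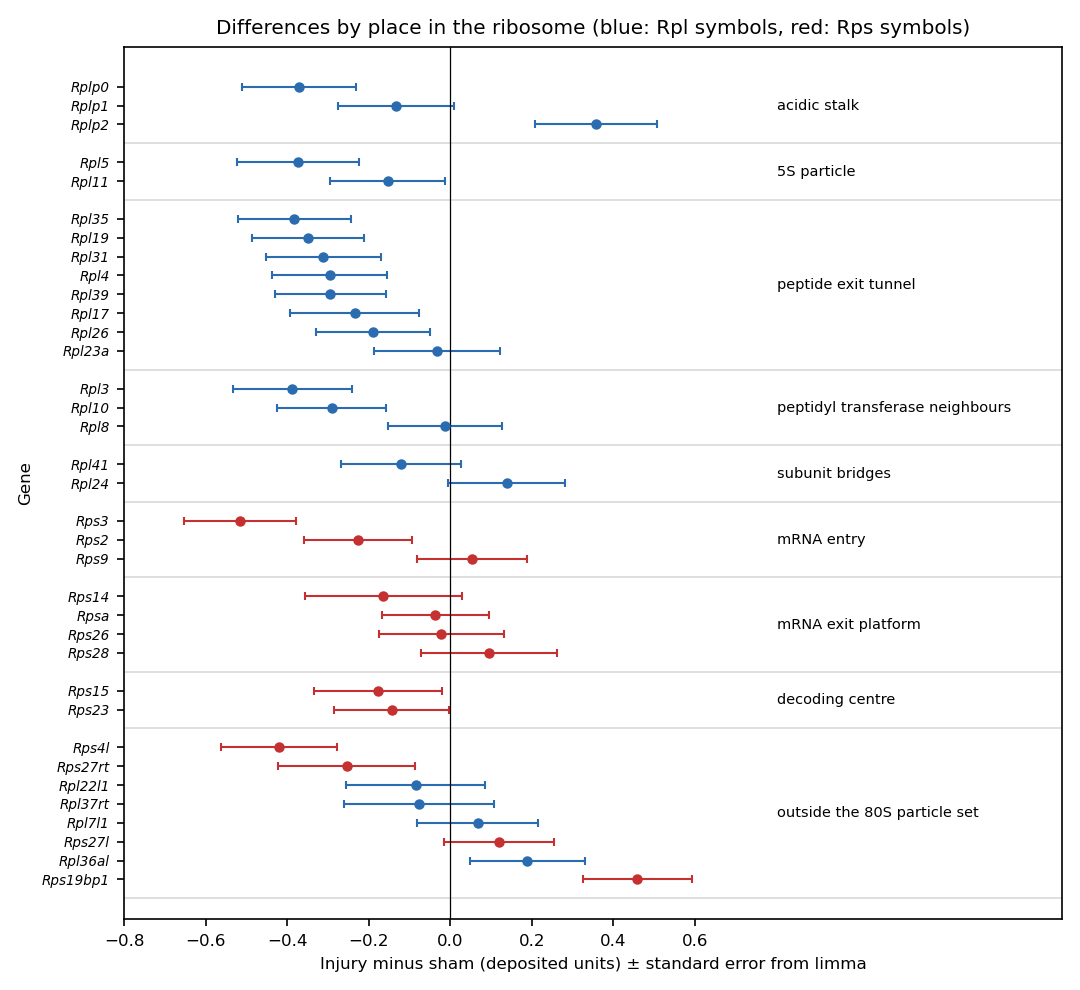
Difference between injury and sham in deposited units, with the standard error from limma as bars, for genes (blue for Rpl and red for Rps symbols) at named places of the ribosome and for the 8 members outside the particle. Exit tunnel genes lie between -0.38 and -0.032, the stalk runs from -0.37 (*Rplp0*) to 0.36 (*Rplp2*), and no gene was called.

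Paralogs of ribosomal proteins can replace the usual copy in some tissues, and 5 pairs of a usual copy and a paralog had both partners in the table. *Rpl36al* was at -0.47 and -0.33 after sham operation and at -0.15 and -0.27 after injury, whereas *Rpl36a* was at -0.35 and -0.46 after sham operation and at -0.61 and -0.33 after injury. The differences were 0.19 and -0.068, each with a standard error of at least 0.14. *Rps27l*, a target of p53, was at -0.41 and -0.31 after sham operation and at -0.22 and -0.27 after injury (difference 0.12), and *Rps27* was at -0.17 and -0.40 and at -0.67 and -0.41 (difference -0.25). *Rpl7l1* differed by 0.067 and *Rpl7* by -0.16, *Rpl22l1* by -0.085 and *Rpl22* by -0.16. *Rps4l* and *Rps4x*, the widely used copy on chromosome X, were both lower, by -0.42 and -0.28. In 4 of these 5 pairs the paralog had the higher difference, and none of the differences passed the test. The order within *Rpl22* and *Rpl22l1* turned without sham replicate 1 (-0.11 and -0.13) and after the correction for GC and length (-0.20 and -0.20). Without injury replicate 1 the sign turned in *Rpl7l1* (-0.051), *Rpl22l1* (0.088) and *Rpl36a* (0.076), and *Rps27* and *Rpl7* were at -0.12 and -0.068. Without sham replicate 1, *Rps27* was at -0.14, *Rps27l* at 0.069 and *Rpl36al* at 0.12. *Rpl10*, *Rpl39* and *Rpl26*, whose paralogs were not analysed here, differed by -0.29, -0.29 and -0.19. Some rows could not be told from another. *Rps27* and its retrocopy *Rps27rt* were within 0.00076 units of each other in every library, *Rpl30* and *Gm12191* within 0.00097, and *Rpl26* had the values of *Gm15772*. Such rows may not be separate measurements, and each is still counted as its own row here. The retrocopy *Rpl37rt* stood apart from the other members with values of 0.23, 0.13, -0.10 and 0.31, while *Rpl37* had a difference of -0.017.

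Ribosomal proteins whose symbols fall outside the rule were uneven too. *Gnb2l1*, which encodes the scaffold RACK1 of the small subunit, was at -0.14 and -0.32 after sham operation and at -0.60 and -0.60 after injury (difference -0.37, standard error 0.14, adjusted p = 0.155 from limma). *Fau*, which fuses a ribosomal protein to a ubiquitin-like protein, differed by 0.11. *Rps27a*, a member made as a fusion to ubiquitin, was at -0.015.

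Other mRNAs with a TOP start had a similar median. Of 20 analysed, 16 had lower means after injury, 12 were apart on the low side (beside 30.3% of all genes) and 1 on the high side (beside 31.6%), 0 were called and 4 were lower at an unadjusted p-value under 0.05 (beside 14.8% of all genes), and the median was -0.19. *Eef1a1*, the factor that brings aminoacyl-tRNA to the ribosome, was at 0.050 and -0.10 after sham operation and at -0.53 and -0.56 after injury (difference -0.52, standard error 0.14, adjusted p = 0.0778 from limma). *Vim*, the intermediate filament vimentin, differed by -0.49 (adjusted p = 0.0837 from limma) and *Eef2*, the translocation factor, by -0.36. *Tpt1* and *Btf3* were at -0.032 and 0.022. This list shares genes with the list of elongation factors and holds *Fau* and *Gnb2l1*.

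Genes that make ribosomes or work on them had list medians from -0.098 to 0.11. The medians were 0.040 over 59 factors of small subunit processing and the nucleolus, -0.027 over 66 factors of large subunit assembly, 0.090 over 16 genes of RNA polymerase I and 0.11 over 18 host genes of small nucleolar RNAs. They were -0.023 over 46 initiation factors, -0.098 over 13 elongation and termination factors, 0.030 over 19 genes of ribosome quality control, 0.082 over 23 genes of nascent chain handling and -0.060 over 27 genes of TOP and S6 kinase signalling. In these 9 lists 2 genes were called, both lower, and with a replicate block 1 gene of the translation and assembly lists was. *Eif5a2*, an isoform of the factor that aids translation through stalling sequences, had a difference of -0.88 (standard error 0.16, adjusted p = 0.0411 from limma), and *Rps6ka5*, the stress kinase MSK1, one of -0.90 (standard error 0.15, adjusted p = 0.0345 from limma). The lists have 7.43% of all genes called as their background. *Mtor* and *Rps6kb1*, which drive TOP translation and RPS6 phosphorylation, differed by -0.20 and -0.060, and *Larp1*, which binds the TOP start, by 0.40 (adjusted p = 0.150 from limma).

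The proteins of the mitochondrial ribosome, a separate particle, were on the other side. Of 77 genes 72 had higher means after injury, 64 were apart on the high side (beside 31.6% of all genes) and 0 on the low side (beside 30.3%), with a median of 0.28 and 0 calls.

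**Figure D4:**
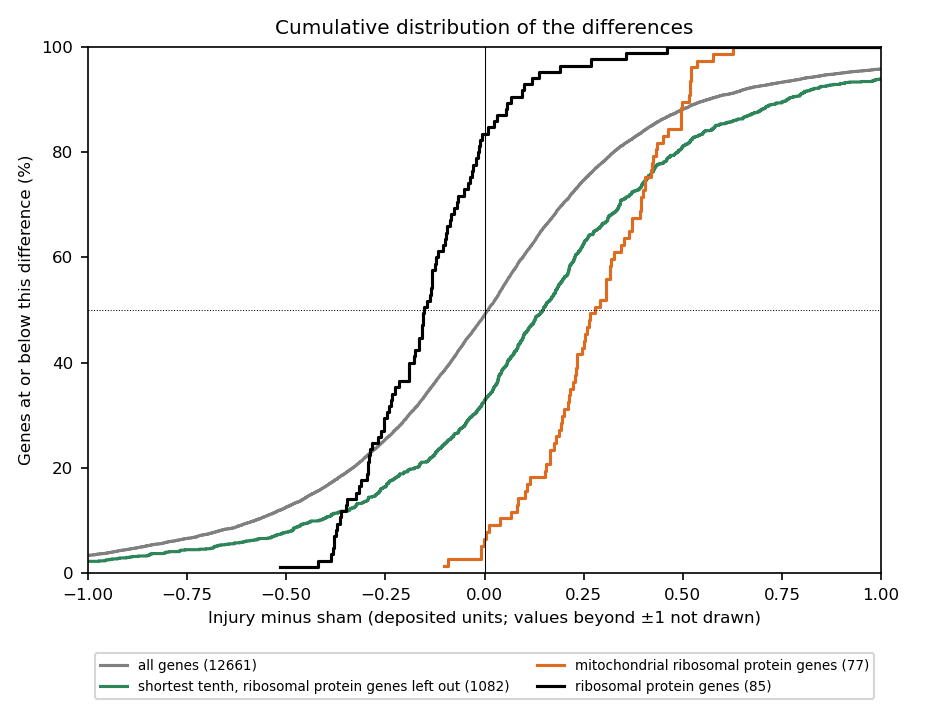
Share of genes (vertical axis, %) at or below each difference between injury and sham (horizontal axis, deposited units) for the 85 ribosomal protein genes, 77 mitochondrial ribosomal protein genes, 1082 other genes with the shortest coding transcripts and all 12661 genes. The curve of the ribosomal protein genes crosses 50% at -0.15, that of the short genes at 0.15 and that of the mitochondrial ribosomal protein genes at 0.28.

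Ribosomal protein mRNAs are short, and short transcripts had values of their own in these libraries. The longest coding transcript had a median of 858 nucleotides over the 80 members found in the GENCODE annotation of mm9, against 3021 over 11417 genes. When these genes were split into 10 bins of length, the bin of shortest transcripts held 59 members, and these had a median difference of -0.15. The other 1082 genes of that bin had one of 0.15, with a lower mean in 32.6%, against 86.4% of the 59 members. With the trend of values on GC content and transcript length taken out of each library, the median of the 85 members was -0.27, with 78 lower means, 59 members apart on the low side (beside 29.8% of all genes) and 0 called. On the high side 4 members were then apart (beside 32.0% of all genes), against 6 before, and members without an annotated length kept their deposited values. Among the particle genes the median was -0.15 over the 37 shorter and -0.16 over the 38 longer ones, and 2 and 8 of them were lower at an unadjusted p-value under 0.05, beside 14.8% of all genes. Spearman's correlation of length with the difference was -0.21 across the 75 particle genes with a length, which share the same 4 libraries, and -0.20 across 11417 genes. Length was that of the longest coding transcript, up to 5130 nucleotides (*Rps15a*), and which transcript gave the values is unknown.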

How the data were processed

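RNA from 4 libraries, 2 per group, was sequenced after poly(A) selection with a stranded kit. The study's methods and the submitters' processing notes give FastQC 0.11.8, Cutadapt 1.18, Trimmomatic 0.39, STAR 2.6.0a on mm9, featureCounts and DESeq2 1.28.0 in R 3.6.0. The step to the deposited values, and the filter that left 12661 genes, are not given in the sources used here. The values the authors deposited are treated as a score of log-like kind: signed decimals from -2.27 to 6.45, 50.5% below 0. They are not counts, so depth is unknown and no interval or detection limit is given. Replicates may be technical, and p-values measure only the spread between these libraries.

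Injury and sham were compared over the whole table with limma 3.58.1 in R 4.3.3 (lmFit and eBayes, group as the only term, no filter), with Benjamini-Hochberg adjustment over 12661 genes and a threshold of 0.05 (941 called, 476 higher and 465 lower). The fit had 2 residual and 3.48 prior degrees of freedom per gene and was tested on simulated data. Members, lists and place groups were chosen with earlier results of these data known, the place groups after the values were seen. Members named by rule were the 5 lowest and 5 highest differences, paralog pairs, the 3 nearest the median and those apart on the high side. Further members were named for their place or role, or after their values were seen. From the other translation lists, called genes and the ribosomal proteins outside the rule were named by rule, and further examples after their values were seen. The values of 1 member and of 1 gene outside the rule are not reported here, although both stay in the counts. Lists are described by counts and medians, with no test of the list. Coordinates and transcript length come from GENCODE vM1 (NCBIM37, the assembly of mm9), which held 80 of the 85 members and gave length and GC for 90.2% of genes. Start sequences come from RefSeq on GRCm38.p6. Tables were handled with pandas 2.3.3 and plots drawn with matplotlib 3.10.9.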

Additional observations from a re-analysis of the deposited data

How the results depend on the processing

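No member was called at an adjusted p-value under 0.05 in limma under the alternatives run (replicate block, quantile normalization, columns scaled to one spread, GC and length trend removed, identical rows counted once, robust variance prior, a minimum difference of 1 unit, and each library left out), beside 12 members at an unadjusted p-value under 0.05 in the fit reported. The adjusted p-value of *Rps3* ranged from 0.0730 to 0.371 and that of *Rps19bp1* from 0.0923 to 0.384. A threshold of 0.1 gave 2 members, 2317 genes in all and 14 genes of the translation and assembly lists, and the minimum of 1 unit gave 591 genes and 0 of those lists, both by construction. With the replicate block 684 genes, 0 members and 1 gene of the lists were called. Replicate numbers paired nothing by the labels, and the deviations of same-numbered libraries correlated at -0.094 over 12661 genes. The median difference of the members was -0.27 once the trend on GC and length was taken out, against -0.15, and the cause of this shift beyond the values given for short genes was not tested. The small minus large subunit median was 0.012, -0.023 after quantile normalization and 0.023 after the GC and length correction, all within 0.03 of 0. Among the 77 particle genes alone, an alternative chosen after seeing the data, 3 were apart on the high side.

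With each library left out, where the lone library of a group is assumed to vary like the others, 0 to 1790 genes were called in all, 0 without sham replicate 1, 1 without sham replicate 2, 284 without injury replicate 1 and 1790 without injury replicate 2. Between 0 and 3 genes of the lists were called, the subunit contrast was 0.00060 to 0.044, and 46 to 70 members were apart on the low side and 6 to 20 on the high side, where all genes reached 37.9% to 41.7% and 39.9% to 42.4%, since 3 libraries overlap less often by construction.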

Other observations

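Pseudogene rows left out by the symbol rule gave values in part unlike those of their parent genes. *Rpl34-ps1* followed *Rpl34*, with differences of -0.24 and -0.24. *Rplp2-ps1* had values of 0.15 and -0.13 after sham operation and of 0.36 and 0.69 after injury, a difference of 0.51 (adjusted p = 0.142 from limma) on the same side as that of *Rplp2* (0.36). *Rps15a-ps6*, *Rps19-ps3*, *Rpl14-ps1* and *Rps15a-ps4* differed by -0.20, -0.16, -0.035 and -0.0049. Of the 9 S6 kinase symbols, *Rps6ka1* had the highest difference (0.88, adjusted p = 0.116 from limma) and *Rps6ka5* the lowest.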
